A study of Homo sapiens with 16 samples.

Results

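CTCF-only peaks are S-phase CTCF peaks at which no S-phase peak of RAD21, HNF4A, KLF5 or MYC was listed. They were chosen by measured values: they are the rows of the S-phase CTCF peak list that shared not even 1 bp with a row of those 4 S-phase lists. They were then followed into M phase. Of the 28474 S-phase CTCF peaks, 6614 met this rule (23.2%, 95% interval 22.7 to 23.7%). The rest were 17597 peaks with RAD21 and none of the 3 factors (61.8%), 2738 with RAD21 and a factor (9.62%) and 1525 with a factor and no RAD21 (5.36%). The lack of S-phase RAD21 and factors is therefore no result. It means that no peak passed the authors' cutoff there, not that no protein was bound.

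The data are ChIP-seq peak lists (chromatin immunoprecipitation and sequencing) from LoVo, an established human colon adenocarcinoma cell line, with 1 library per target and phase. M-phase cells were kept for 12 h in 2 mM thymidine, which stalls DNA synthesis, and then for 8 h in 200 ng/ml nocodazole, which stops spindle assembly. Early S-phase cells were kept for 12 h in 2 mM thymidine, released for 8 h and returned to thymidine for 12 h. CTCF was precipitated with a goat antibody and called against goat IgG, and RAD21, HNF4A, KLF5, MYC and histone H3 were called against rabbit IgG.

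CTCF is a zinc-finger protein that binds a long DNA motif and marks insulators and the ends of chromatin loops. Cohesin is a protein ring that extrudes loops and pairs sister chromatids, and it gathers where it meets bound CTCF. RAD21 is the subunit that closes the cohesin ring. In early mitosis most cohesin leaves the chromosome arms, and how much CTCF stays is known to differ between cell types and methods. HNF4A is a nuclear receptor that shapes gut and liver cells. KLF5 belongs to the Krüppel-like family and acts in dividing cells of the intestinal crypt, and MYC drives genes of cell growth.

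The M-phase CTCF library held 14186052 filtered tags and the S-phase library 7520364, a ratio of 1.89. For RAD21 the numbers were 16510005 in M phase and 7531890 in S phase, a ratio of 2.19. The headers place the S-phase CTCF and goat IgG alignments in a differently named set than the S-phase RAD21 and factor alignments, and all M-phase alignments in 1 set. The labels do not say whether the S-phase sets were the same cultures. Since each group is a single library, no test across samples can be made, and all intervals below are 95% intervals over peaks that cover counting error only. Shares have Clopper-Pearson intervals, and plain differences of shares have Newcombe intervals.

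CTCF-only peaks had the lowest median score and tag count of the 4 classes of S-phase CTCF peaks. The score of a peak, as the authors give it, is a MACS p-value on a -10 log10 scale, and every listed peak has a score of at least 50. CTCF-only peaks had a median score of 85.7 (quartiles 63.3 and 133), against 193 at CTCF peaks with RAD21 and no factor (112 and 334). Their median fold enrichment over IgG was 11.9, against 17.4 in that class, and their median count was 22 tags, against 47 tags. The median width was 1162 bp, against 1417 bp. CTCF peaks with a factor and no RAD21 lay between in score, with a median of 106. They held more tags than either, with a median of 51, and had a lower median fold enrichment, 9.48. A false discovery rate (FDR) under 5% was given to 42.4% of CTCF-only peaks and to 80.7% of CTCF peaks with RAD21 and no factor. The class also held strong sites: its highest score was 2164.87, and 10% of its peaks scored above 220.

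The share of CTCF-only peaks fell with strength. When all S-phase CTCF peaks were divided into 10 equal groups by score, CTCF-only peaks made up 54.0% of the weakest group (1537 peaks) and 2.85% of the strongest (81 peaks). Peaks near the limit of the rule were few, and 6251 of the 6614 had no RAD21 or factor peak within 1000 bp either. Near the limit, 10 CTCF-only peaks had a gap of under 50 bp to such a peak, with a median score of 65, and 11 CTCF peaks shared 50 bp or fewer with one, with a median score of 87.1. The median gap from a CTCF-only peak to the nearest S-phase RAD21 peak was 23634 bp (quartiles 8769 and 50843), over the 6605 peaks on a sequence that had one.

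Fewer than 1 in 2 CTCF-only peaks were listed again for CTCF in M phase. A peak counted as kept when an M-phase CTCF peak overlapped it by at least 1 bp. This held for 2729 of the 6614 CTCF-only peaks (41.3%, 40.1 to 42.5%), against 69.4% of all S-phase CTCF peaks. The share was 78.4% (77.8 to 79.0%) at CTCF peaks with RAD21 and no factor, 56.5% (53.9 to 59.0%) with a factor and no RAD21, and 86.6% (85.2 to 87.8%) with both. CTCF-only minus CTCF with RAD21 and no factor gave a difference of -37.2 percentage points (-38.5 to -35.8). CTCF-only minus CTCF with a factor and no RAD21 gave -15.2 points (-17.9 to -12.4). The share of CTCF-only peaks kept fell to 19.0% where the M-phase peak had to score at least 100, and to 8.66% where its FDR had to be under 5%. Of the whole M-phase CTCF list, 36.6% of peaks had such an FDR, against 70.9% of the S-phase list.

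The difference from CTCF peaks with RAD21 was smaller among peaks of like strength, but did not vanish. Standardised differences were taken within 10 equal groups of the S-phase CTCF score, made over the peaks of both classes, and averaged with the number of peaks of the smaller class as weight. By this measure, CTCF-only minus CTCF with RAD21 and no factor was -20.1 points (normal interval -21.6 to -18.6). Against CTCF with a factor and no RAD21 it was -6.96 points (-9.39 to -4.53). The score groups made over all 4 classes, as plotted, show the same course. In the weakest of them 20.2% of CTCF-only peaks were kept (18.3 to 22.3%), against 46.5% of peaks with RAD21 and no factor (43.2 to 49.7%). In the fifth group the shares were 58.8% and 73.4%. In the eighth they were 86.3% (81.2 to 90.5%) and 90.5%. Of the 81 CTCF-only peaks in the strongest group, all 81 were kept (lower bound 95.5%), against 98.1% with RAD21. Standardised with fold enrichment as the measure of strength the difference was -30.1 points, and with tags -13.4 points.

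**Figure D1:**
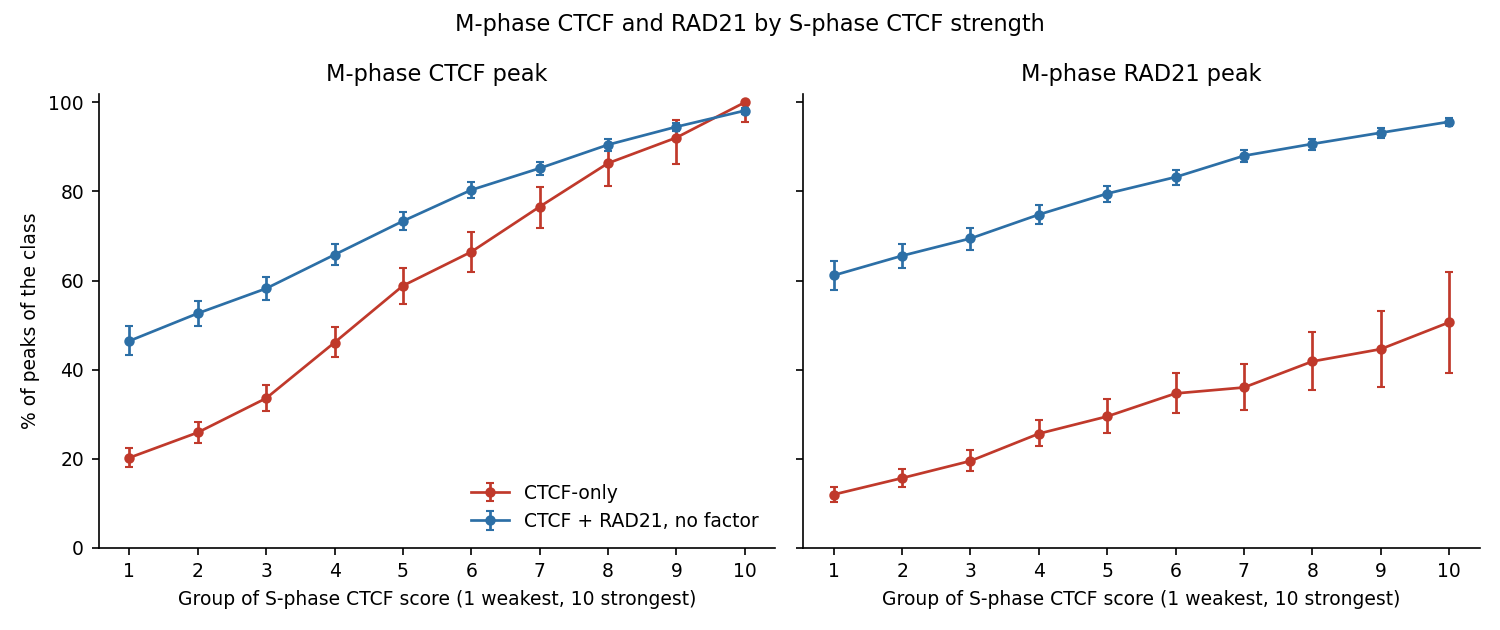
Share of S-phase CTCF peaks with an M-phase CTCF peak (left) and an M-phase RAD21 peak (right), in percent, in 10 equal groups of the S-phase CTCF score, for CTCF-only peaks (red) and CTCF peaks with RAD21 and no factor (blue); bars are Clopper-Pearson 95% intervals over peaks. The CTCF shares of both classes approach each other at the strong end, whereas the RAD21 share of CTCF-only peaks reaches only 50.6% in the strongest group.

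RAD21 was listed in M phase at 1474 of the CTCF-only peaks (22.3%, 21.3 to 23.3%), against 64.3% of all S-phase CTCF peaks. By the rule none of them had an S-phase RAD21 peak, so this count could only go up, and the share is given as a description. The summits of these M-phase RAD21 peaks lay close to that of S-phase CTCF, at a median distance of 42 bp (quartiles 19 and 79), and within 100 bp at 82.2% of the sites. At CTCF peaks that had RAD21 in S phase and no factor, 82.7% had RAD21 in M phase (82.2 to 83.3%).

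These M-phase RAD21 peaks were weaker than those that met an S-phase RAD21 peak, but not than the other M-phase RAD21 peaks that met none. The 1476 M-phase RAD21 peaks at CTCF-only sites had a median score of 75.4 (quartiles 60.1 and 101.2), against 156 (93.7 and 265) at the 18842 M-phase RAD21 peaks that met an S-phase one. They held a median of 24 tags, or 1.45 tags per 1000000 library tags, against 43 tags or 2.60. An FDR under 5% was given to 26.4%, against 72.3%. All 4124 M-phase RAD21 peaks that met no S-phase RAD21 peak had a median score of 66.2, with an FDR under 5% for 16.8%. Those among them at CTCF peaks with a factor had a median score of 71.1, and those at no S-phase CTCF peak 62.1. With a score of at least 100 required of the M-phase peak, 5.78% of CTCF-only peaks had RAD21 in M phase, and with an FDR under 5%, 5.90%. The M-phase RAD21 library was the deeper one by a factor of 2.19. Its rabbit IgG control went the other way, with 6875106 filtered tags in M phase and 10753369 in S phase, a ratio of 0.639. For the goat IgG control of CTCF the ratio was 1.15. The part of these depths in the M-phase listing of RAD21, and in its scores and FDR, was not tested. The lists give tags for called peaks only, so the S-phase RAD21 tags at these sites are not known.

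Among sites with no S-phase RAD21 peak, M-phase RAD21 was listed more often at CTCF-only sites than at those with CTCF and a factor. The share was 22.3% at CTCF-only peaks and 16.4% (14.6 to 18.3%) at CTCF peaks with a factor, a difference of 5.89 points (3.71 to 7.94). The CTCF-only peaks were the narrower of these classes, at the medians of 1162 and 1615 bp. Standardised for the S-phase CTCF score the difference was 9.69 points (7.51 to 11.9). Where the M-phase peak had to score at least 100 it was 1.97 points (0.765 to 3.01), and where 50% of each peak had to be shared it was 11.1 points. At factor peaks without CTCF and RAD21 in S phase, M-phase RAD21 was listed at 6.98% for KLF5 (6.18 to 7.85%), at 5.60% for MYC (5.08 to 6.15%) and at 4.47% for HNF4A (4.11 to 4.86%). At H3 peaks without either it was listed at 0.160% (0.0521 to 0.374%). Seen from the M-phase list, 4124 RAD21 peaks met no S-phase RAD21 peak, and 1474 of these (35.7%, 34.3 to 37.2%) lay on a CTCF-only peak. Over all 22966 M-phase RAD21 peaks, 1476 did. The 4124 peaks and the CTCF-only set were both chosen by a lack of S-phase RAD21, so the 35.7% is given as a description. Of the same 4124, 6.11% lay on a CTCF peak with a factor and no RAD21, and 1.75% on one with RAD21. The converse sites, S-phase RAD21 peaks without CTCF and factors, had an M-phase CTCF peak in 26.7% of 4417 cases (25.4 to 28.0%).

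**Figure D2:**
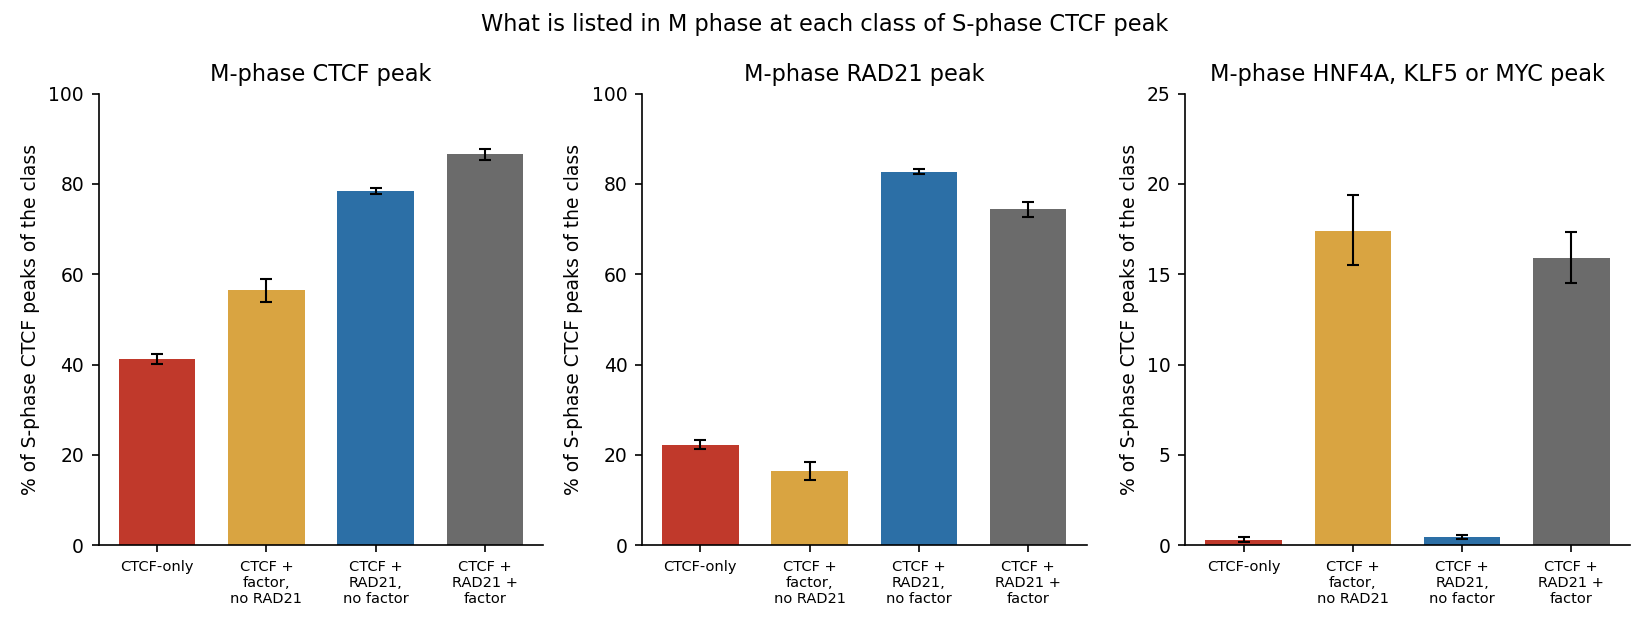
Share of S-phase CTCF peaks, in percent by class, with an M-phase CTCF peak, an M-phase RAD21 peak and an M-phase peak of HNF4A, KLF5 or MYC (the third panel has a shorter axis); bars start at 0 and error bars are Clopper-Pearson 95% intervals over peaks. CTCF-only peaks have the lowest CTCF share of the 4 classes (41.3%), a RAD21 share of 22.3% against 16.4% with a factor, and almost no factor peaks (0.287%).

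M-phase RAD21 was listed more often where CTCF was kept, at CTCF-only sites as in the other classes. At CTCF-only sites RAD21 was listed at 33.0% of the CTCF-only peaks that kept CTCF (901 of 2729, 31.3 to 34.8%) and at 14.7% of those that did not (573 of 3885, 13.6 to 15.9%). The difference was 18.3 points (16.2 to 20.4), and 11.6 points (9.27 to 14.0) when standardised for the S-phase CTCF score. Over all S-phase CTCF peaks the shares were 76.1% where CTCF was kept and 37.6% where it was lost. With a factor and no RAD21 they were 22.6% and 8.28%, with RAD21 and no factor 87.7% and 64.8%, and with both 78.3% and 49.7%. The direction was thus the same in each class. The 6614 peaks fell into 901 with M-phase CTCF and RAD21 (13.6%), 1828 with CTCF and no RAD21 (27.6%), 573 with RAD21 and no CTCF (8.66%) and 3312 with neither (50.1%). Their median S-phase CTCF scores were ordered 142, 114, 88.5 and 71.1. At CTCF peaks with RAD21 and no factor in S phase, 68.7% had both proteins in M phase and 7.59% had neither. The 573 sites with RAD21 and no CTCF had weaker M-phase RAD21 peaks, with a median score of 70.4, against 79.9 where both were listed.

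**Figure D3:**
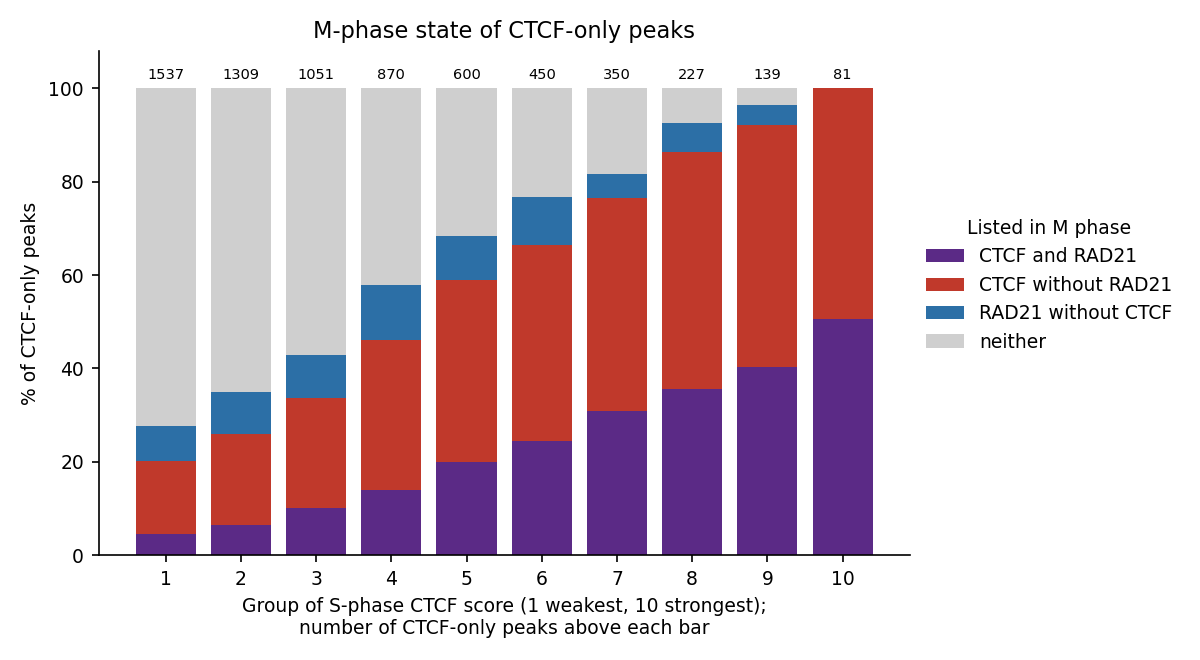
M-phase state of the CTCF-only peaks, in percent of the peaks in each of 10 equal groups of the S-phase CTCF score; colours show which of CTCF and RAD21 was listed in M phase and the number above each bar is the number of CTCF-only peaks. In the weakest group 72.4% of 1537 peaks had neither protein, and in the strongest each of the 81 peaks had CTCF and 50.6% also had RAD21.

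The M-phase list also contained many CTCF peaks without partners. Of the 24391 M-phase CTCF peaks, 7589 (31.1%) overlapped no M-phase peak of RAD21 or the 3 factors, against 23.2% by the same rule in S phase. The rule met shorter lists in M phase. The ratio of M-phase to S-phase peak numbers was 0.156 for HNF4A, 0.165 for MYC, 0.357 for KLF5 and 0.847 for RAD21. The part of these list sizes in the larger M-phase share was not tested. Of these 7589, 24.3% (23.3 to 25.2%) lay on an S-phase CTCF-only peak, against 11.3% of all M-phase CTCF peaks. On a CTCF peak that had RAD21 and no factor in S phase lay 23.3% (22.3 to 24.3%), against 57.4% of all. On no S-phase CTCF peak lay 37.5% (36.4 to 38.6%), against 17.2% of all. S-phase CTCF peaks with a factor and no RAD21 were met by 7.81% of the 7589 (7.22 to 8.44%), against 3.66% of all. For S-phase CTCF peaks with both, the share was lower than over the whole list. M-phase CTCF peaks without listed partners thus lay on S-phase CTCF-only peaks more often than the whole list did, though most of them did not. The direction was the same for S-phase CTCF peaks with a factor and no RAD21, so it was not particular to CTCF-only peaks.

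Kept CTCF-only sites, like kept sites of the other classes, had a lower CTCF signal in M phase once scaled to library size. Over the 2708 sites with 1 peak per phase, median signal was 1.69 tags per 1000000 library tags and median width 815 bp in M phase, against 4.12 and 1297.5 bp in S phase. The median of the M-phase over S-phase ratio was 0.414 (quartiles 0.300 and 0.571), and 97.0% of the sites were lower in M phase. In the other classes 98.4% (RAD21 and no factor), 99.8% (a factor and no RAD21) and 99.9% (both) were lower. Per kilobase of called width the medians were 2.15 tags per 1000000 library tags in M phase and 3.28 in S phase. The headers give a CTCF fragment size of 191 bp in M phase and 308 bp in S phase, and its part in the called widths was not tested. The ratio was 0.343 at CTCF sites with RAD21 and no factor, 0.228 with a factor and no RAD21, and 0.230 with both. It varied with strength: in the sixth score group it was 0.374 both at CTCF-only sites and with RAD21 and no factor. In the weakest group it was 0.601 at CTCF-only sites and 0.530 with RAD21, and in the strongest 0.244 and 0.256. The M-phase list holds no peak of fewer than 11 tags, or 0.775 tags per 1000000, so low ratios at weak sites could not be seen. Summits of the 2 phases lay within 100 bp at 82.2% of CTCF-only sites, against 91.4% with RAD21 and no factor. The share was 79.5% with a factor and no RAD21, and 84.3% with both. Where M-phase RAD21 was also listed, the M-phase CTCF peak was somewhat stronger, with a median of 1.90 tags per 1000000, against 1.62 where it was not. The same sites were stronger in S phase too, with 4.79 against 3.99.

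HNF4A, KLF5 and MYC almost never appeared at these sites in M phase. Only 19 CTCF-only peaks had an M-phase peak of any of the 3 factors (0.287%, 0.173 to 0.448%), against 2.80% of all S-phase CTCF peaks. KLF5 was at 9 CTCF-only peaks (0.136%), against 0.850% of all S-phase CTCF peaks. HNF4A was at 5 (0.0756%), against 0.773%, and MYC at 5 (0.0756%), against 1.46%. The rule left out peaks with an S-phase factor, which these backgrounds include, so lower shares are no result. At CTCF peaks with RAD21 and no S-phase factor the shares were 0.284% for KLF5, 0.0511% for HNF4A and 0.125% for MYC. No CTCF-only peak had 2 of the factors. CTCF was kept at 13 of the 19 and M-phase RAD21 was listed at 8. For any of the 3 factors the share at CTCF peaks with RAD21 and no S-phase factor was 0.449% (0.356 to 0.559%). CTCF-only minus that class gave a difference of -0.162 points (-0.313 to 0.0221). None of the 19 remained where the M-phase peak had to score at least 100, which allows a share of up to 0.0558%. The labels give the number of M-phase KLF5 peaks to the M-phase rabbit IgG control, so the identity of that list is uncertain. M-phase RAD21, HNF4A, MYC and H3 were called against rabbit IgG too, and the labels do not settle whether that control carries the same doubt. Histone H3, the chromatin control, had an S-phase peak at 19 CTCF-only peaks (0.287%), against 0.509% of all S-phase CTCF peaks, and an M-phase peak at 2, against 0.0527%.

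CTCF-only peaks far from any listed S-phase RAD21 peak had M-phase RAD21 more often than those near one. At the 635 peaks more than 100000 bp from any S-phase RAD21 peak the share was 29.6% (26.1 to 33.3%), and at the 1838 peaks less than 10000 bp away 19.6% (17.8 to 21.5%). The difference was 9.97 points (6.06 to 14.0), and 13.0 points (9.15 to 16.8) when standardised for the S-phase CTCF score. On the autosomes alone it was 10.3 points (6.10 to 14.7). The far peaks had a median S-phase CTCF score of 76.6, against 85.7 for all CTCF-only peaks. CTCF itself was kept at 38.0% of the far peaks and 43.7% of the near ones. The standardised difference of 1.39 points had an interval from -2.70 to 5.48. The S-phase RAD21 list that sets the distance also chose the set, so these shares are a description. Other classes of CTCF peaks were not divided by distance, and the part of the S-phase RAD21 depth was not tested.

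**Figure D4:**
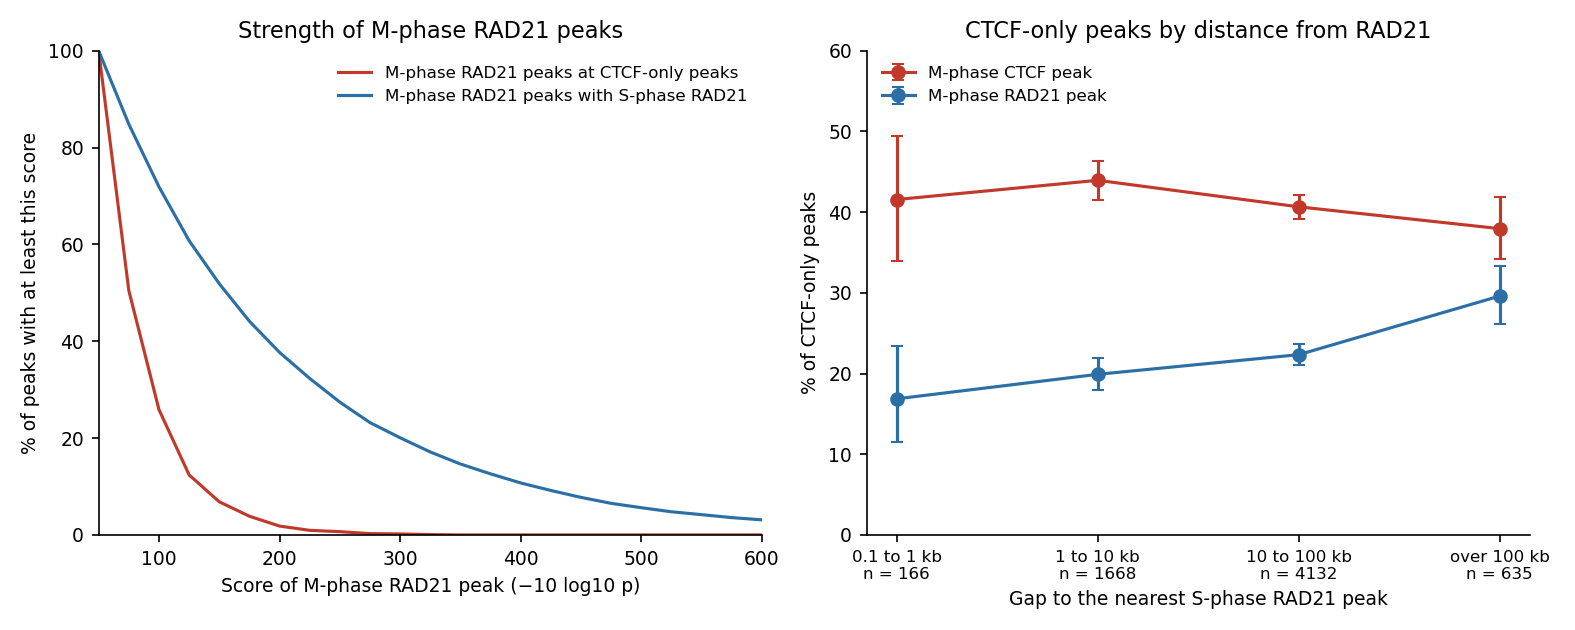
Left, share of M-phase RAD21 peaks (percent) at or above each score, for those at CTCF-only peaks (red) and those that met an S-phase RAD21 peak (blue). Right, share of CTCF-only peaks (percent) with an M-phase CTCF peak (red) or RAD21 peak (blue) by the gap to the nearest S-phase RAD21 peak, with Clopper-Pearson 95% intervals; the 4 peaks closer than 100 bp are not drawn, and the RAD21 share is 16.9% in the nearest group drawn and 29.6% in the farthest.

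Chromosome X stood apart from the autosomes in the share of CTCF-only peaks. On X 295 of 698 S-phase CTCF peaks were CTCF-only (42.3%, 38.6 to 46.0%), against 22.7% on the autosomes together (22.2 to 23.2%). Single autosomes ranged between 17.5% on chromosome 12 and 28.2% on chromosome 16. The difference of 19.6 points (15.9 to 23.3) was 10.98 points (7.41 to 14.5) when standardised for score. S-phase CTCF peaks were weaker on X. They had a median of 3.06 tags per 1000000 library tags on X and 5.72 on the autosomes, and S-phase RAD21 peaks had 1.86 and 2.79. The part of this lower signal in the larger CTCF-only share was not tested. Of the CTCF-only peaks on X, 35.3% kept CTCF, against 41.6% on the autosomes, and the standardised difference of -4.84 points had an interval from -9.91 to 0.225. At CTCF peaks with RAD21 and no factor 53.4% were kept on X and 78.9% on the autosomes. M-phase RAD21 was listed at 27.5% of CTCF-only peaks on X and 22.1% of CTCF-only peaks on the autosomes (5.38 points, 0.488 to 10.8). Over all S-phase CTCF peaks the direction was opposite, with 50.1% on X and 64.7% on the autosomes (-14.6 points, -18.3 to -10.8; standardised -3.84 points). Among all chromosomes the M-phase RAD21 share of CTCF-only peaks was highest on chromosome 13 (37.5%, 29.1 to 46.5%) and lowest on chromosome 20 (15.3%, 10.7 to 21.1%). These chromosomes held 128 and 202 CTCF-only peaks. They were picked as extremes after the values were seen, and their intervals are not adjusted for that. The share over all S-phase CTCF peaks is not given by single autosome, so a trait of the whole chromosome cannot be told apart.

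**Figure D5:**
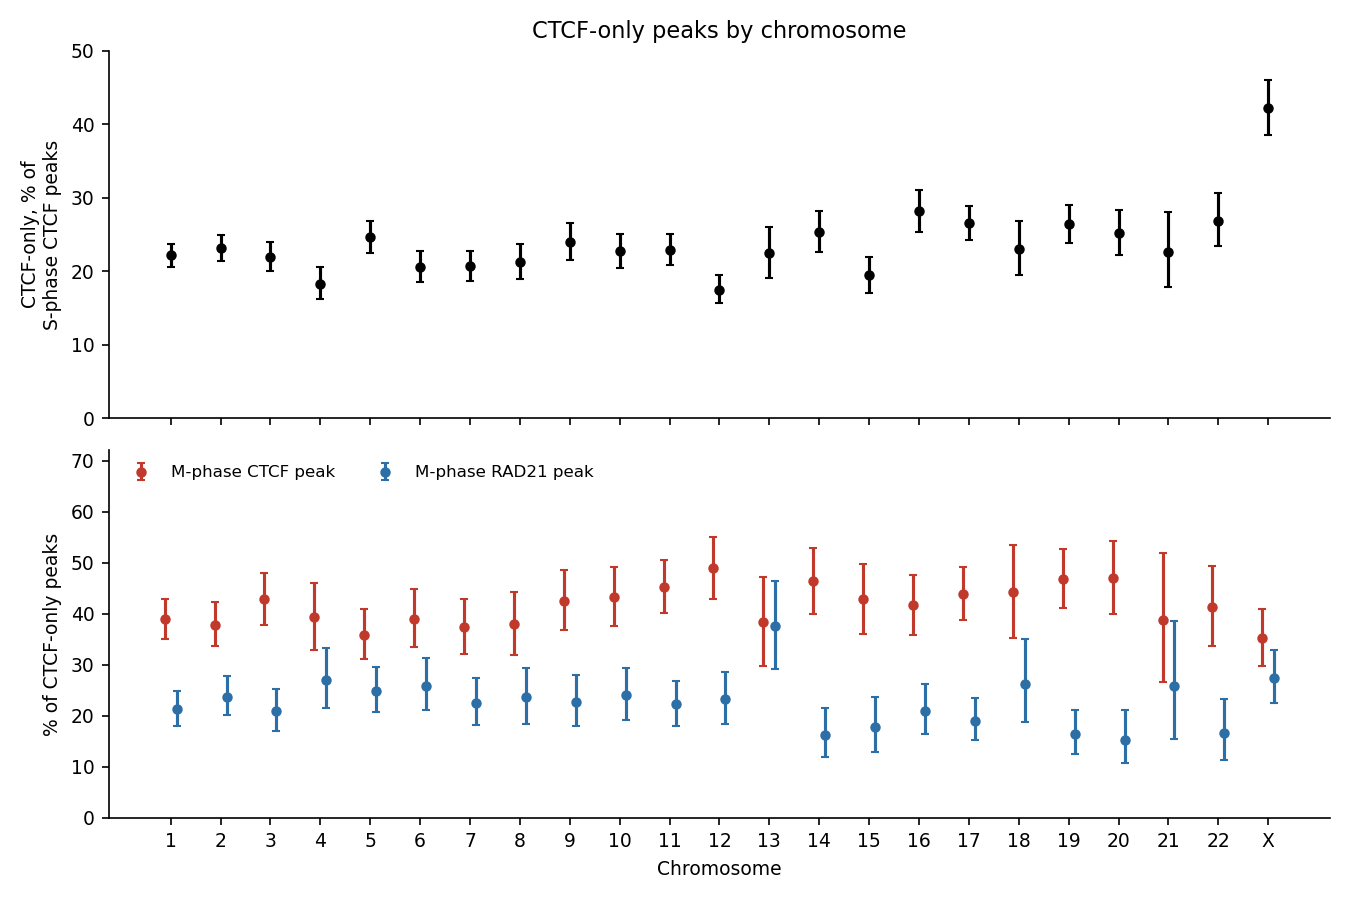
Upper, CTCF-only peaks as a percent of the S-phase CTCF peaks of each chromosome; lower, percent of CTCF-only peaks with an M-phase CTCF peak (red) or RAD21 peak (blue). Points are shares and bars Clopper-Pearson 95% intervals over peaks; X lies at 42.3% in the upper panel, above each autosome, and chromosome 13 has the highest RAD21 share, 37.5%.

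Along the chromosomes CTCF-only peaks were mostly scattered. Of the autosomal CTCF-only peaks, 25.3% (24.2 to 26.4%) were followed by another one in the CTCF list, against 21.6% (21.0 to 22.2%) of CTCF peaks with RAD21 and no factor. A CTCF-only peak followed 24.4% (22.2 to 26.6%) of those with a factor and no RAD21, and 22.3% (20.7 to 23.9%) with both. The interval of the class with a factor and no RAD21 overlaps that of CTCF-only peaks. With chromosome 8 left out, the 2 longest runs of CTCF-only peaks with no other CTCF peak between them both lay on chromosome 14, and were singled out after their values were seen. One, from 105588926 to 105786095, held 10 peaks, of which 4 kept CTCF and 0 had M-phase RAD21. The other, from 105963002 to 106146600, held 9 peaks, of which 7 kept CTCF and 3 had M-phase RAD21.

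Single sites show the 4 outcomes. Positions are in the human build hg18, sites are taken in order of the authors' S-phase fold enrichment, and tag counts are as deposited, not scaled to library size. The CTCF-only peak of highest fold enrichment lay on chromosome 11 from 65746190 to 65747781, 34139 bp from the nearest S-phase RAD21 peak. It held 86 CTCF tags at 64.98-fold in M phase and 215 tags at 113.77-fold in S phase. RAD21 was listed there in M phase with 30 tags at 11.17-fold. The next site with both proteins, on chromosome 14 from 92148542 to 92150227, had 69 CTCF tags in M phase and 107 in S phase, and 33 M-phase RAD21 tags. A further one on chromosome 14, from 36194442 to 36196041, had 64 CTCF tags in M phase and 90 in S phase, and 28 M-phase RAD21 tags. At each of these 3 sites M-phase RAD21 had fewer tags than M-phase CTCF, from the larger of the 2 libraries. The sites were picked for high S-phase CTCF and the antibodies differ, so this is no result about the amounts of the proteins.

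CTCF without RAD21 was kept at the site 129081632 to 129083032 of chromosome X. It had 36 tags there at 23.35-fold in M phase and 95 tags at 86.7-fold in S phase. On chromosome 11 from 72683331 to 72684840, only 4554 bp from an S-phase RAD21 peak, CTCF had 48 tags in M phase and 82 in S phase. On chromosome 3 from 150190892 to 150192363 the counts were 25 in M phase and 60 in S phase. At these last 2 sites the M-phase CTCF peak had an FDR above 5%, 11.76% and 9.98%.

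The leading sites of the other outcomes were weaker in S phase. In M phase, RAD21 without CTCF was found at the site 70491687 to 70493099 of chromosome 14, with 13 RAD21 tags where S-phase CTCF had had 47 tags at 42.76-fold. On chromosome 7 from 6561896 to 6563273, 20 M-phase RAD21 tags lay at a site of 44 S-phase CTCF tags, and on chromosome 11 from 47830982 to 47832529, 21 at a site of 50. The FDR of these 3 RAD21 peaks was 11.19%, 10.12% and 8.33%. Neither protein was listed in M phase within 1000 bp of the site on chromosome 3 from 185545559 to 185547144, which had 46 CTCF tags at 39.48-fold in S phase and ranked 80 by fold enrichment among CTCF-only peaks. The next ones lay on chromosome 11 from 61195053 to 61196634 and on chromosome 1 from 6980644 to 6981780, each with 42 S-phase CTCF tags.

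The leading CTCF-only sites with an M-phase factor peak each had a different factor, and in each the factor peak was near the cutoff. On chromosome 6 from 27871031 to 27872662, M-phase HNF4A had 16 tags at a score of 63.07, beside 23 CTCF tags and 29 RAD21 tags in M phase. On chromosome 1 from 200896518 to 200898019, M-phase KLF5 had 11 tags at a score of 62.2 beside M-phase CTCF without RAD21. On chromosome 16 from 3118873 to 3120604, M-phase MYC had 16 tags at a score of 52.68 beside 65 CTCF tags and 22 RAD21 tags in M phase. The authors' FDR was 100% for the HNF4A and MYC peaks and 13.95% for the KLF5 peak.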

How the data were processed

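Peak lists of 6 targets in M phase and S phase (12 lists, 16 libraries with the 4 IgG controls) were used as deposited. Per the submitters' processing notes, reads went through CASAVA 1.4, BWA on hg18 and MACS 1.4. Per the file headers, MACS 1.4.0rc2 called each target on merged alignments against IgG, keeping at most 1 tag per position, at a band width of 300 bp and a p-value cutoff of 1e-05. The deposited tag counts are whole numbers per peak, not normalized. The score column of the deposited lists is a MACS p-value on a -10 log10 scale. The deposited fold enrichment is a ratio over the local background, and the deposited FDR is a percent. The FDR did not follow the score strictly in the M-phase CTCF list.

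Targets and phases came from the sample titles. The series' design text speaks of siRNA against RAD21 and a control siRNA, but no label of these 16 samples does. Overlaps, shares and intervals were computed in Python 3.11.15 (scipy 1.17.1, pandas 2.3.3, numpy 2.4.6) and tested on simulated data. Tags per 1000000 library tags use the filtered tags in the headers. The M-phase over S-phase ratios use sites with exactly 1 peak in each phase. Members, classes and alternatives were chosen with earlier results of these data known. Named regions were the 3 CTCF-only peaks of highest S-phase fold enrichment for each M-phase outcome, at no H3 peak, on chromosomes 1 to 22 and X without 8, with nothing of CTCF or RAD21 within 1000 bp for the sites that had neither, and likewise the 3 highest with an M-phase factor. No hg18 annotation or sequence was used here, so peaks were assigned to no gene and no sequence is shown. The alternatives tried were stricter overlap, score and FDR limits, other measures of strength, a 1000 bp margin, and leaving out H3 peaks or chromosome X.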

Additional observations from a re-analysis of the deposited data

How the results depend on the processing

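Of 72 alternative values of 8 results, 33 stayed within the interval of the reported value and 39 moved outside it. None of the differences between shares changed sign, and the plain shares could not do so. Leaving out peaks at H3 or, chosen after seeing the data, chromosome X moved none of the 8. With no RAD21 or factor peak allowed within 1000 bp only the CTCF-only share moved, to 22% of S-phase CTCF peaks. It was 13.9% with an FDR under 5% in every list and 13.4% with an S-phase score of at least 100. In the S-phase RAD21, HNF4A, KLF5 and MYC lists 100% of peaks had such an FDR, so the limit removed none of them. CTCF was kept at 32.1% of CTCF-only peaks with 50% of each peak shared, 33.9% with summits within 100 bp, 19.0% with an M-phase score of at least 100, 8.66% with an M-phase FDR under 5%, 17.4% with that FDR in every list and 64.2% with an S-phase score of at least 100. In the same order, M-phase RAD21 was listed at 19.7%, 18.3%, 5.78%, 5.90%, 9.87% and 32.7%. M-phase factors were at 0.121% and 0.0907% with 50% shared and with close summits, and at 0% in the 3 M-phase score and FDR settings. An FDR under 5% was given to 0 of 2413 M-phase HNF4A peaks, 86 of 1974 for MYC and 396 of 2118 for KLF5. With that limit the 0% was thus fixed in advance for HNF4A, and few MYC and KLF5 peaks were left to be met. The kept share of CTCF-only minus CTCF with RAD21 was -31.6 points with 50% shared, -26.5 with an M-phase FDR under 5%, -23.9 with it in every list and -20.9 with an S-phase score of at least 100. Standardised for strength it was -18.4 points with 50% shared, -15.3 with an M-phase score of at least 100, -8.77 and -10.7 with the FDR limit in M phase and in every list, -13.2 with an S-phase score of at least 100, -30.1 by fold enrichment and -13.4 by tags. The RAD21 share where CTCF was kept minus where it was lost was 9.17 points with an M-phase score of at least 100, 10.2 and 7.90 with the FDR limit in M phase and in every list, and 12.3 with an S-phase score of at least 100. The RAD21 share of CTCF-only minus CTCF with a factor and no RAD21 was 11.1 points with 50% shared, 1.97 with an M-phase score of at least 100, 2.03 with an M-phase FDR under 5% and 11 with an S-phase score of at least 100. Stricter limits leave fewer peaks by construction, and beyond that the cause was not tested. No paired analysis was possible because each target and phase has 1 library. Depth limits the lists: a site that is not listed may still be bound below the cutoff, and the S-phase RAD21 library had fewer than 1 in 2 of the filtered tags of the M-phase one.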
